A study of Mus musculus with 6 samples.

Results

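The testis of the inbred mouse strain MRL/MpJ (labelled MRL/MpJ-+/+) was compared with that of AKR/N and C57BL/6 by the genes whose signal in both MRL/MpJ arrays lay above, or below, all 4 arrays of the other strains. Of 6 arrays, 2 were from MRL/MpJ, 2 from AKR/N and 2 from C57BL/6, each from total RNA of the testes of mice 8 weeks old, 2 mice to a strain, and the labels name no treatment. The arrays carry probe sets, groups of short oligonucleotides that each read 1 transcript as a fluorescence intensity. A gene was read from its brightest tested probe set, and 4081 of 14477 tested genes met the rule, 2058 with both MRL/MpJ arrays above the others and 2023 with both below. Of these, 1349 were also called different between MRL/MpJ and the mean of the other strains (limma, adjusted p under 0.05), and the account below is of these 1349 genes. Whole testes were used, so each strain's signal mixes germ cells with all somatic cells, and the strains stand for whole genomes rather than for single alleles.

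MRL/MpJ is known for closing ear wounds with little scarring and, in the testis, for spermatocytes that withstand heat. Germ cells of the mouse testis pass from spermatogonia through meiotic spermatocytes to round and then elongating spermatids, and each stage has its own transcripts. Sertoli cells support them inside the tubules, while Leydig cells, which make testosterone, and macrophages lie between the tubules.

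The arrays were of like brightness, with medians of 28 to 30.7 intensity units. Pearson correlations across probe sets were 0.979 to 0.985 within a strain and 0.967 to 0.979 between strains, and probe sets are not independent samples. Transcripts of all germ cell stages were bright in all 6 arrays, the 26 elongating spermatid genes tested summing to between 98444 and 120780 units, while the 1 epididymal gene tested of 8 listed (6 of them on the array) read at most 78 units. Differences are given on the scale of log2(intensity + 16), where the added 16 units shrink the differences of dim genes, with the standard error (SE) of the fit and with p-values that were adjusted across all 29692 tested probe sets. Precision is set by there being 2 arrays to a strain, and all 3 strains share 1 estimate of the spread. The labels do not number the mice apart from the arrays, so the p-values measure the spread between these samples.

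Of 29692 probe sets, 2529 (8.52%) were called between MRL/MpJ and the mean of the others, 1178 higher and 1351 lower. Both MRL/MpJ arrays lay above the others in 13.3% of probe sets (3948) and below them in 11.7% (3464). This order turned with arrays centred on their median, where 3352 lay above and 3962 below. The same was so of the AKR/N arrays, above or below, in 24.2% and of the C57BL/6 arrays in 28.3%, against 25% for MRL/MpJ, so standing outside the other 4 arrays was about as common in each strain. Among genes, 563 (3.89%) were higher and 786 (5.43%) lower in MRL/MpJ and called. The median difference was 0.459 among the higher and -0.45 among the lower, and 55 and 88 genes differed by at least 2-fold. Leaving out MRL/MpJ replicate 1 left 495 genes in all, leaving out MRL/MpJ replicate 2 left 550, and leaving out AKR/N replicate 2 left 819. The members nearest to the border were B3galnt2, Serinc3 and Ypel3, with gaps between the nearest MRL/MpJ and the nearest other array of 0.0013, 0.0017 and 0.0027. Just outside it were Ppp1r11, Rasd1 and Tmem203, whose arrays overlapped by -0.0018, -0.0023 and -0.0032.

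**Figure D1:**
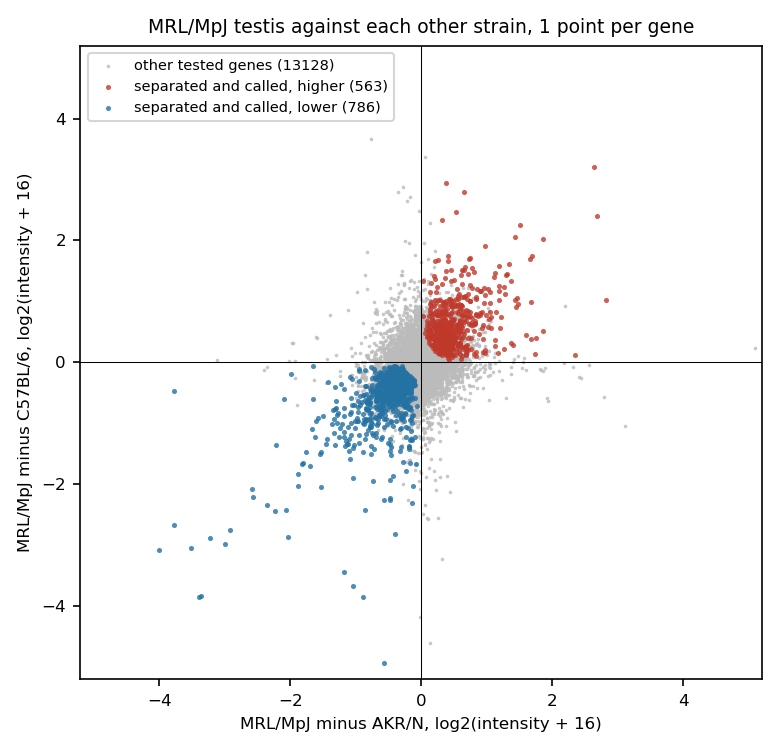
Difference of MRL/MpJ from AKR/N (horizontal axis) and from C57BL/6 (vertical axis) on the log2(intensity + 16) scale, 1 point for each of 14477 genes. The 563 genes higher in MRL/MpJ lie in the upper right and the 786 lower ones in the lower left, and both axes share the 2 MRL/MpJ arrays.

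The genes that stood farthest above the other strains came from unlike functions: a cytochrome P450, a meiotic transcription factor, a prenyltransferase subunit, a phosphatase, an Fc receptor, an ABC transporter and a mitochondrial reductase. Cyp2f2, a cytochrome P450 known from lung and liver that oxidises small aromatic compounds, read 196 and 210 units in MRL/MpJ, 17.9 and 20.7 in AKR/N and 15 and 2.33 in C57BL/6. It was 2.92 higher (SE 0.209, adjusted p = 1.49e-05), with the widest gap of the higher genes. Mybl1, the A-MYB transcription factor that spermatocytes need in meiosis, read 461 and 413 units in MRL/MpJ against 53.9 and 55.8 in AKR/N and 56.1 and 85.7 in C57BL/6. The AKR/N and C57BL/6 arrays were both low and did not differ by the test (adjusted p = 0.341), so MRL/MpJ was the strain that stood apart, by 2.54 (SE 0.138, adjusted p = 2.16e-06). A second probe set of Mybl1 gave 144 and 109 units in MRL/MpJ and 27.4 to 36.6 in the others, a difference of 1.58 (SE 0.165, adjusted p = 0.000236).

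Fntb, the beta subunit of protein farnesyltransferase, read 162 and 160 units in MRL/MpJ and 19.7 to 37.9 in the 4 other arrays. Ptpro, a receptor-type tyrosine phosphatase, read 99.7 and 88.1 units against 14.5 to 21.8, and its second probe set 27.7 and 49.2 against 2.23 to 8.75. On that second probe set all 4 other arrays were under the 40th percentile of their array. It was thus tested only because of its MRL/MpJ arrays and had to differ to enter. Fcgr3, a low-affinity receptor for immunoglobulin G on macrophages and other leukocytes, read 650 and 684 units in MRL/MpJ, 247 and 225 in AKR/N and 152 and 145 in C57BL/6. Here the other strains also differed from each other, AKR/N being higher than C57BL/6 by 0.62 (adjusted p = 0.00208), so the 3 strains formed 3 levels.

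Abca14, an ABC transporter of the A subfamily, read 743 and 725 units in MRL/MpJ, 289 and 286 in AKR/N and 257 and 260 in C57BL/6. The arrays of each strain lay within a few percent of one another, and the difference was 1.38 (SE 0.0706, adjusted p = 1.43e-06). Mtarc2, a mitochondrial molybdenum enzyme that reduces N-hydroxylated compounds, read 874 and 916 units against 292 to 363. Thrsp, the Spot 14 protein that promotes fatty acid synthesis, read 171 and 224 units in MRL/MpJ, 50 and 67.6 in AKR/N and 33.8 and 23.8 in C57BL/6, and its second probe set was also separated (1.17, adjusted p = 0.00121). Elobl, named for its likeness to elongin B, and A630023P12Rik complete the 10 widest gaps. Both were dim, at 47.5 and 39.7 units against at most 2.86, and at 28.3 and 29.6 against at most 2.05. In both, all 4 other arrays were under the 40th percentile, so these genes were tested only because of their MRL/MpJ arrays and had to differ to enter. The call of Elobl was lost without MRL/MpJ replicate 1 (adjusted p = 0.0707), and that of A630023P12Rik without MRL/MpJ replicate 1 (0.134) or MRL/MpJ replicate 2 (0.152).

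The widest gaps below the other strains were wider than those above, and in many the MRL/MpJ arrays lay near the bottom of the scale. A gap of over 1 was seen in 35 lower and 14 higher genes, and in 45 of the 786 lower genes both MRL/MpJ arrays were at or under the 40th percentile of their array. All 4 other arrays were that low in 5 of the 563 higher genes. Rd3, which restrains guanylate cyclase in photoreceptors, read 3.6 and 4.25 units in MRL/MpJ, 189 and 196 in AKR/N and 283 and 259 in C57BL/6 (difference -3.62, SE 0.112, adjusted p = 3.94e-08). Gm19723 read 47.1 and 34.1 units against 579 and 548 in AKR/N and 818 and 762 in C57BL/6, a difference of -3.60 (SE 0.101, adjusted p = 2.27e-08). Map4k1, a kinase known from blood cells, read 27.1 and 14.7 units in MRL/MpJ, 589 and 549 in AKR/N and 297 and 289 in C57BL/6. Both genes were clearly measured in the other strains, at unequal levels, and dim in both MRL/MpJ arrays.

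Ddah1, the enzyme that degrades asymmetric dimethylarginine, an inhibitor of nitric oxide synthase, read 13.1 and 11.9 units in MRL/MpJ and 180 to 286 in the others. Its 3 other tested probe sets all pointed the same way, but by -0.69, -0.59 and -0.16, against -3.05 in the brightest, and only the first of these was separated (adjusted p = 0.00606). Cfhr3, a complement factor H-related protein, read 6.47 and 7.04 units against 132 to 165. Aldh1a7, an aldehyde dehydrogenase, read 23.3 and 22.2 units against 176 to 188, with no difference called between AKR/N and C57BL/6 (adjusted p = 0.968). Of the transcripts without a known protein function, 4930523O13Rik read 25.1 and 18.4 units against 291 to 450, and both of its other probe sets were separated and called lower too. Slfn5os read 1.47 and 1.72 units in MRL/MpJ, 220 and 231 in AKR/N and 102 and 89.4 in C57BL/6, and 4921534H16Rik read 11.4 and 22.2 against 208 to 274.

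Ccdc38, a coiled-coil protein of the sperm tail, was the brightest of the 10 widest lower gaps. It read 257 and 251 units in MRL/MpJ, 1326 and 1191 in AKR/N and 1457 and 1448 in C57BL/6, a difference of -2.34 (SE 0.0666, adjusted p = 2.27e-08). Its second probe set gave 137 and 100 units in MRL/MpJ and 636 to 879 in the others (-2.43, SE 0.126, adjusted p = 1.47e-06). Both probe sets thus put MRL/MpJ at about the same distance.

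**Figure D2:**
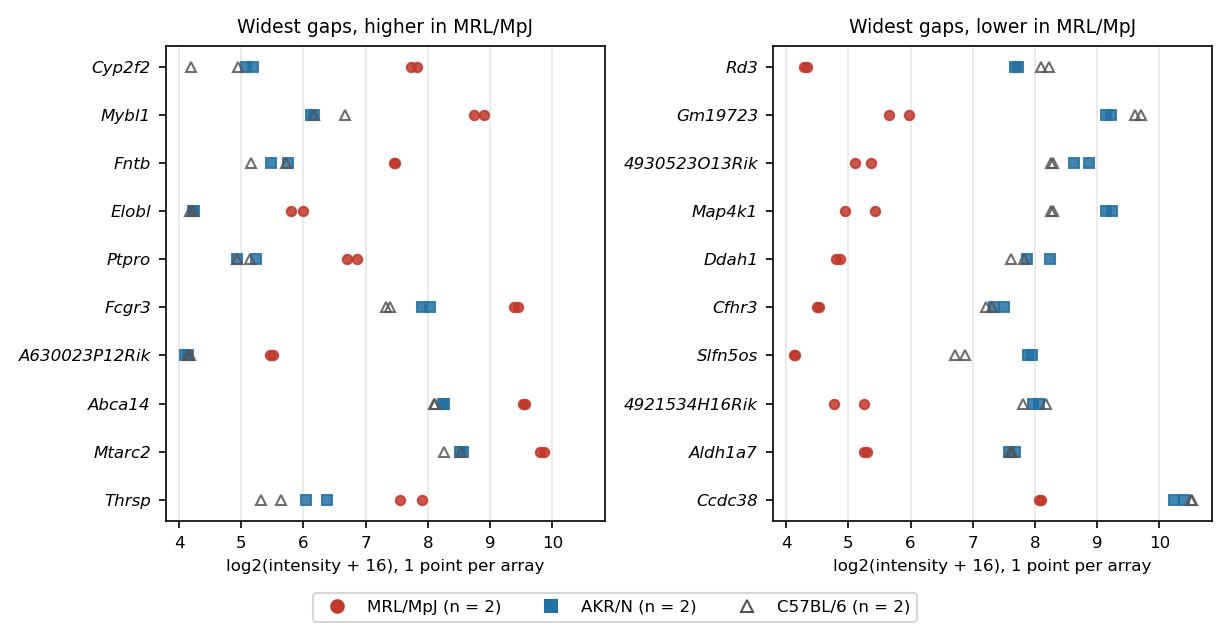
Signal of each of the 6 arrays on the log2(intensity + 16) scale (horizontal axis) for the 10 genes with the widest gap above and the 10 with the widest gap below the other strains, 1 point per array and no error bars. Both MRL/MpJ points of Cyp2f2 lie more than 2.5 units right of the nearest other array (gap 2.53), and both of Rd3 more than 3.3 units left of it (gap 3.34).

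The promoters of 3 of these genes are shown because their transcripts stood among the widest gaps and their start sites are listed in RefSeq (assembly GRCm38.p6, mouse reference sequence, 250 bases before to 50 after the start, written in the direction of the gene). Abca14 is at chr7:120203714-120204013, Rd3 at chr1:191977120-191977419 and Ccdc38 at chr10:93540382-93540681, all on the plus strand. Capitals mark matches on either strand to the CCAAT box (CCAAT) or to a MYB motif (the letters CAACGG or CAACTG, and likewise TAACGG or TAACTG).
Abca14: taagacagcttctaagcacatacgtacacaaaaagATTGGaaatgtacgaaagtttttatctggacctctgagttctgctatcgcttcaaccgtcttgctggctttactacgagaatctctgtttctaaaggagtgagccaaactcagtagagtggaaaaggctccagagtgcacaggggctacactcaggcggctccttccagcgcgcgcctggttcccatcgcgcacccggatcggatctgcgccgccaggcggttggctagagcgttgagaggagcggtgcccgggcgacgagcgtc
Rd3: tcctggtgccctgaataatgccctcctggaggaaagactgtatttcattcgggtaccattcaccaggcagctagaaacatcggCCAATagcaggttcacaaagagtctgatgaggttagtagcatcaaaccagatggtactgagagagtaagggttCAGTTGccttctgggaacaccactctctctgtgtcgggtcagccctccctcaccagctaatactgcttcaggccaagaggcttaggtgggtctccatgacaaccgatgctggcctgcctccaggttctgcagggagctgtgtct
Ccdc38: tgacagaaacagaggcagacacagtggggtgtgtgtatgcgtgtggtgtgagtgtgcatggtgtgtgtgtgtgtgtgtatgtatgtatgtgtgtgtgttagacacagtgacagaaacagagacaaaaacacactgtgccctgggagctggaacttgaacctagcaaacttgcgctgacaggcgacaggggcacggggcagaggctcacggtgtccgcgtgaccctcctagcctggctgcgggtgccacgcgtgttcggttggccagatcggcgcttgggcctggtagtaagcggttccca

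Abca14 holds 1 CCAAT match, at bases 36 to 40 of the 300. Rd3 holds 1 of each motif, at bases 84 to 88 and 157 to 162, and the Ccdc38 promoter shown holds neither. Rd3 and Ccdc38 have 2 listed promoters each, and only the first was read. The motifs do not overlap here, and a match is only a run of letters. Because Mybl1 was higher in MRL/MpJ, the MYB letters were counted in the first listed promoter of each gene, at the same length. They stood in 30.8% of 455 promoters of higher genes, 31.1% of 640 of lower genes and 26.3% of 11670 of tested genes, so higher and lower genes held them about equally often. The cAMP response element (TGACGTCA) stood in 3.96%, 4.22% and 2.99%, the TATA box (TATAAA) in 6.59%, 9.38% and 7.91% and CCAAT in 37.1%, 40.5% and 38.3%.

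Among the brightest genes tested, 1700097N02Rik had one of the widest gaps, at 3008 and 3054 units in MRL/MpJ, 2074 and 2114 in AKR/N and 530 and 537 in C57BL/6. Cfap161, a protein of cilia and flagella, read 2061 and 2263 units against 982 to 1255 (0.94, SE 0.0701, adjusted p = 2.03e-05). Dnah8, a dynein heavy chain of the sperm tail, read 4457 and 4958 units against 3030 to 3309. Cfap161 and Dnah8 are thus flagellar genes that were higher in MRL/MpJ. Psma8, the germ cell form of a proteasome alpha subunit, was also higher, at 2199 and 2257 units against 1222 to 1391. Fabp3, a fatty acid carrier, read 1867 and 1865 units against 1042 to 1314, and Gstm2, a glutathione transferase, 2274 and 2452 against 1235 to 1730.

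Among bright lower genes, Ndufa12, an accessory subunit of respiratory complex I, read 1977 and 2073 units in MRL/MpJ against 3537 to 4451 (-0.97, SE 0.0562, adjusted p = 3.45e-06). A second probe set gave -0.71 (adjusted p = 3.29e-05), but another, also bright, gave 2185 and 2170 units, between the AKR/N and C57BL/6 arrays. Rp9 read 758 and 761 units against 1649 to 2151, and 9530057J20Rik 1552 and 1726 against 2799 to 2982. Riiad1 read 419 and 571 units against 954 to 1371, and Theg, a gene of haploid germ cells, 828 and 820 against 1173 to 1261. On the probe sets given first, the rule that chose these genes leaves no overlap between MRL/MpJ and the others. None of the bright genes named here lost its call when any 1 array was left out.

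Another tested probe set was available for 288 of the higher and 317 of the lower genes. In 170 and 182 of them all other probe sets had the sign of the brightest, and in 130 and 127 another probe set was also separated the same way. Of the 534 and 532 other probe sets, 71.7% and 64.7% had the same sign, beside 60.8% over all genes with more than 1 tested probe set (6246). Separation in the same way was found in 31.8% and 31% of them, beside 15.7% over all genes. Among genes of at least 2-fold difference with another probe set, 11 of 19 higher and 18 of 28 lower genes had it separated the same way. Probe sets of 1 gene were read from the same RNA, so their agreement is no replicate of the strain.

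Vcam1, an adhesion molecule for leukocytes, agreed on all 3 probe sets, with 534 and 487 units in MRL/MpJ on the brightest against 288 to 319 in AKR/N and 175 and 177 in C57BL/6, and differences of 1.09, 0.86 and 1.04. Glo1, which detoxifies methylglyoxal, was higher by 0.73, 0.98 and 1.11 on its 3 probe sets. Abca1, which exports cholesterol from cells, read 792 and 831 units against 443 to 487, and its 2 other probe sets were separated the same way, 1 of them called. Gpt2, a mitochondrial alanine aminotransferase, was called higher on 4 of 4 probe sets, by 0.48 to 0.81, and Fxyd2, a regulator of the sodium pump, on 3 of 3, by 0.64 to 0.75. The calls of the brightest probe sets of Gpt2 and Fxyd2 were lost without MRL/MpJ replicate 1 (adjusted p = 0.0521 and 0.0818) or MRL/MpJ replicate 2 (0.108 and 0.0949).

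Among lower genes, Zfp991, a zinc finger gene, read 207 and 202 units in MRL/MpJ, 383 and 386 in AKR/N and 1134 and 1194 in C57BL/6, and its other probe sets were lower by -1.86 and -1.38. Ift27, part of the transport machinery of cilia, was lower by -0.49, -0.56 and -0.42 on its 3 probe sets. Cntd1, a cyclin-like protein of meiotic crossovers, was lower by -0.49, -0.47 and -0.39, with all 3 called. Cldn3, a tight junction protein, and Vav3, an exchange factor for small GTPases, were separated on 3 of 3 probe sets each, at under 100 units. Their calls were lost without MRL/MpJ replicate 2 (Cldn3, adjusted p = 0.055) and MRL/MpJ replicate 1 (Vav3, 0.117).

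In 28 higher and 38 lower genes another probe set was separated the opposite way, and in 13 and 8 it was also called. Ywhaz, the zeta form of the 14-3-3 adaptor proteins, has 7 tested probe sets. The brightest read 619 and 605 units in MRL/MpJ against 1184 to 1345 (-1.04, adjusted p = 5.1e-06), and 2 others were called lower. Another read 927 and 649 units against 133 to 209, a difference of 2.08 the other way (adjusted p = 8.9e-06), and 3 more were not separated. No direction can be given for this gene. Wdr48, a cofactor of ubiquitin peptidases, read 3401 and 3605 units against 1478 to 1814 on its brightest probe set (1.10, adjusted p = 3.01e-06) but 464 and 416 against 558 to 650 on another (-0.43, adjusted p = 0.0042). Smarce1, a subunit of the BAF chromatin remodelling complex, and Cnnm4, a magnesium transport protein, were lower on the brightest (-0.94 and -0.96) and separated upward on dimmer ones, by 0.32 for Smarce1 and by 0.48 and 0.19 for Cnnm4, none of them called. Adi1 was lower on 2 probe sets and separated upward on another that was not called, and Arnt2 had 1 of each, with a call that was lost without MRL/MpJ replicate 1 (adjusted p = 0.0665), MRL/MpJ replicate 2 (0.0724) or AKR/N replicate 2 (0.0544).

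**Figure D3:**
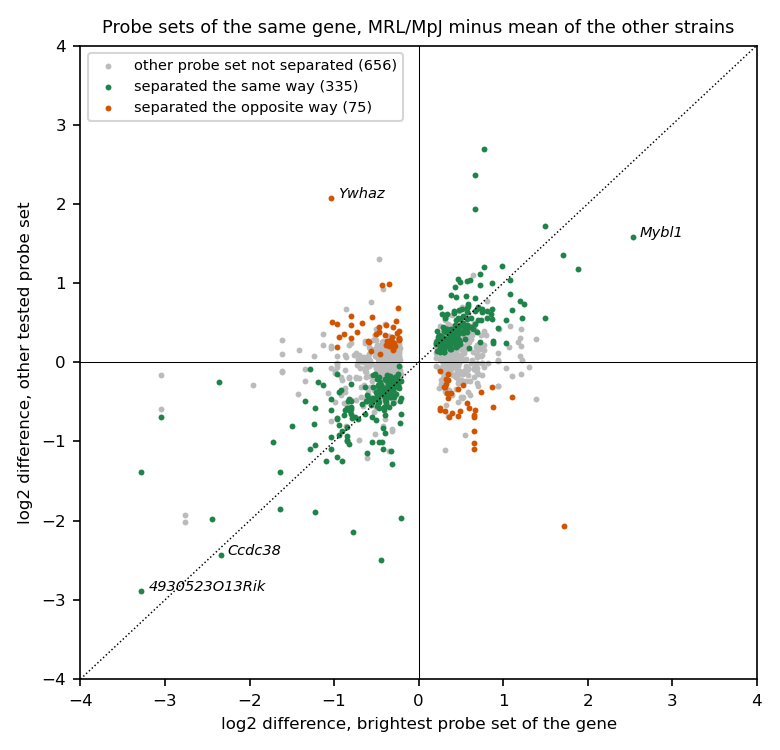
Difference between MRL/MpJ and the mean of the other strains on the brightest probe set of a gene (horizontal axis) and on each other tested probe set (vertical axis), log2(intensity + 16), for genes separated and called. Of the other probe sets, 335 were separated the same way, 75 the opposite way and 656 not at all, and the dotted line marks equal differences.

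The brightest probe set can also show less than another of the same gene, and which of them reads the gene rightly was not tested. Psmd6, a regulatory proteasome subunit singled out after its values were seen, did not differ on its brightest probe set (0.01, adjusted p = 0.952). Another probe set of the gene read 68.9 and 47 units in MRL/MpJ against 896 to 1020 in the others, a difference of -3.73 (adjusted p = 2.27e-08) with a gap of 3.43, wider than that of Rd3. Likewise chosen after the values were seen, Galc, a lysosomal galactosidase, was lower by -0.45 on its brightest probe set and by -2.50 on another (11.8 and 8.92 units against 107 to 148). Cdk14, a cyclin-dependent kinase, was higher by 0.78 and 2.69 on separated probe sets, while another did not differ (-0.06). Spon1, an extracellular matrix protein, was higher by 0.66, 2.37 and 1.93, but another of its probe sets was separated the opposite way (-0.60). On the Spon1 probe set that gave 2.37, all 4 other arrays were under the 40th percentile, so it was tested only because of its MRL/MpJ arrays. A wider gap still was on a probe set that names several globin genes and is given with the blood markers.

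Genes of the round and elongating spermatid lists were lower or not called in MRL/MpJ. Some sperm tail genes outside these lists, such as Dnah8 and Cfap161, were higher. Round spermatids had the highest share of separated and called genes among the lists with at least 10 tested genes (38.5%, beside 9.32% of all genes). Of 26 round spermatid genes tested, 10 were lower and called in MRL/MpJ and 0 higher, and both MRL/MpJ arrays lay below all others in 19. The median difference was -0.23, beside 0.01 over all genes. Sun5, which anchors the sperm head to its tail, read 481 and 518 units in MRL/MpJ, 894 and 889 in AKR/N and 896 and 840 in C57BL/6 (-0.80, SE 0.0659, adjusted p = 4.53e-05). Spaca7, an acrosomal protein, read 588 and 571 units against 780 to 894 (-0.53, SE 0.0729), and Lyzl6, a lysozyme-like sperm protein, 1180 and 1136 against 1468 to 1577. The other 7 were Acrv1, Spaca1, Spaca3, Tssk2, Actl7a, Actl7b and Spag6, by -0.24 to -0.40, and none of the 3 named first lost its call with any 1 array left out. The count of 10 was 3 without MRL/MpJ replicate 1, while leaving out MRL/MpJ replicate 2 gave 5 and AKR/N replicate 2 gave 6, and the median stayed between -0.19 and -0.25 with any 1 array left out.

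Of 26 elongating spermatid genes, 8 were lower and called and 0 higher, with a median of -0.12. They were Tekt2, a tektin of the axoneme, Cabyr, Fscn3, H1f7, Ropn1, Spata18, Spem1 and Gapdhs, by -0.20 to -0.40. Tekt2 read 1806 and 1925 units in MRL/MpJ against 2315 to 2563. The count rests on each array: it was 1 without MRL/MpJ replicate 1 and 5 without either MRL/MpJ replicate 2 or AKR/N replicate 1. Leaving out AKR/N replicate 2 gave 2, as did C57BL/6 replicate 2, while C57BL/6 replicate 1 left out, or quantile normalization, gave 4. The summed signal of the round spermatid genes was 37837 and 38808 units in MRL/MpJ, below the 42554 to 44875 of the others, while that of the elongating spermatid genes overlapped, at 98444 and 108165 against 107581 to 120780. Of sperm energy genes 3 of 31 were lower and 0 higher, among them Aldoart2, a sperm form of aldolase (-0.38). That is 9.68%, near the 9.32% of all genes, and the median of the list was -0.01. In whole testis, fewer cells of a type and less RNA per cell cannot be told apart.

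**Figure D4:**
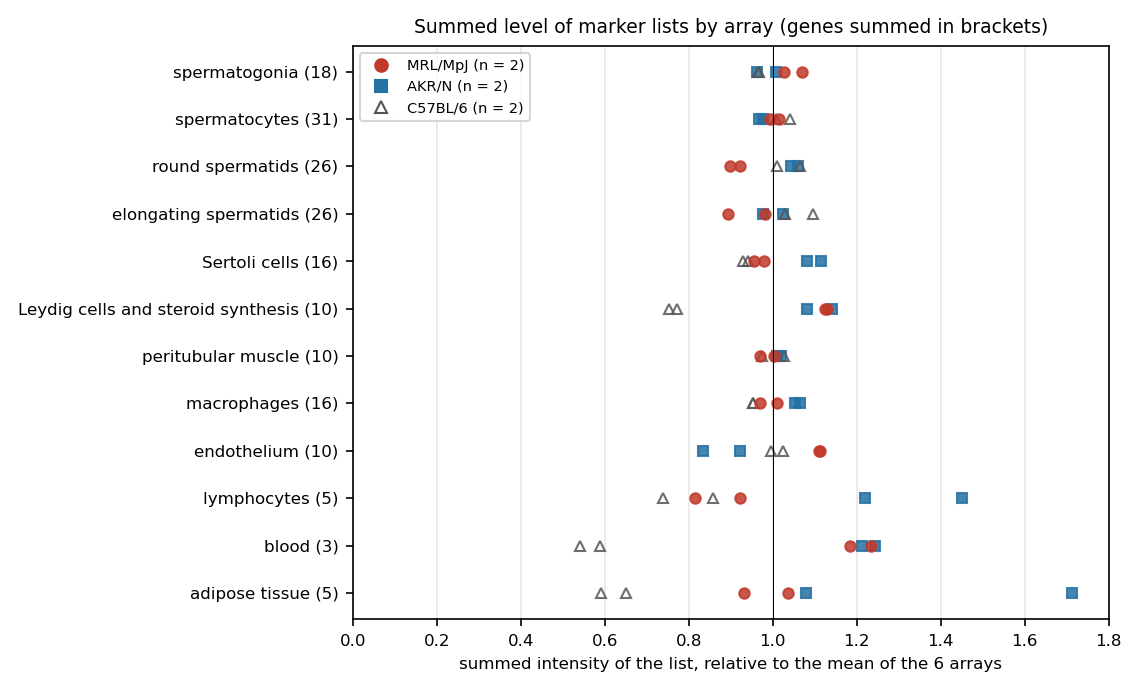
Summed intensity of marker genes by array, relative to the mean of the 6 arrays (horizontal axis, from 0), for 12 cell types, 1 point per array and no error bars. Both MRL/MpJ arrays lie below the other 4 for round spermatids and above them for spermatogonia and endothelium.

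Genes of meiotic prophase were more often called higher than lower, but their median difference was small. Of 31 spermatocyte genes, 5 were higher and 1 lower, a total of 19.4% beside 9.32% of all genes. The median of the list was 0.07, beside 0.01 over all genes. It was 0.13 against AKR/N and 0.015 against C57BL/6. Hormad1, which marks unpaired chromosome axes, read 849 and 653 units in MRL/MpJ against 365 to 574 (0.74, SE 0.134, adjusted p = 0.00726), and Mybl1, Dmc1, Sycp3 and Piwil1 were the others, the last 3 by 0.46, 0.35 and 0.25. Rec8, the meiotic kleisin subunit of cohesin, was lower, at 189 and 219 units against 286 to 330 (-0.57, SE 0.0948, adjusted p = 0.00457). With MRL/MpJ replicate 1 left out the calls of Hormad1 (adjusted p = 0.102) and Rec8 (0.0715) were lost, and the higher count was 1. It was 3 without MRL/MpJ replicate 2 or AKR/N replicate 1, while leaving out AKR/N replicate 2 or C57BL/6 replicate 1 gave 2. The summed signal of the list overlapped between MRL/MpJ and the others.

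In the piRNA pathway, which silences transposons with small RNAs, 5 of 22 genes were higher and 0 lower, and the median was 0.14. Pld6, a mitochondrial protein needed to make piRNAs, read 926 and 1003 units in MRL/MpJ, 502 and 536 in AKR/N and 681 and 707 in C57BL/6 (0.67, SE 0.0677, adjusted p = 0.000187). The others were Mybl1, which drives piRNA precursor transcription, Gpat2 (0.35), Tsnax (0.33) and Piwil1, the MIWI protein (0.25). Mybl1 and Piwil1 stand in the spermatocyte list as well. The count was 2 without MRL/MpJ replicate 1 or 2 and 3 without AKR/N replicate 1 or 2. The list's summed signal was 23775 and 23662 units in MRL/MpJ against 22727 to 22927.

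Exo1, an exonuclease of mismatch repair and meiotic recombination, was lower in MRL/MpJ, at 37.6 and 40.4 units against 86.9 and 83.5 in AKR/N and 74.6 and 54.8 in C57BL/6 (-0.71, SE 0.145, adjusted p = 0.0133). Its other probe set was separated the same way, and its call was lost without MRL/MpJ replicate 1 (adjusted p = 0.103) or 2 (0.0752). Of 40 genes of DNA repair and recombination, Brca2 was higher (0.32) and Exo1 and Polb lower. Of 18 spermatogonial genes, Kit (0.44), the receptor of differentiating spermatogonia, and Taf4b (0.38) were higher and 0 lower. Of 46 genes of cell division 1 was higher and 3 lower, and of 37 proteasome genes 1, Psma8, was higher and 2, Psmc4 and Psme3, lower. Another probe set of Psme3 was separated the opposite way (0.31, adjusted p = 0.11), and the mean of its probe sets changed sign (0.0339), so no direction can be given for it. Except for Psma8, each gene of this paragraph lost its call without MRL/MpJ replicate 1 (Polb, adjusted p = 0.0687, Brca2 0.0733, Kit 0.126, Taf4b 0.155, Psmc4 0.0833 and Psme3 0.153).

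The lists of somatic cell markers were short. The separated and called share was 20% for Leydig, 18.8% for Sertoli, 18.8% for macrophage and 10% for peritubular genes, beside 9.32% of all genes. Among 10 Leydig cell and steroid synthesis genes, 2 were higher and 0 lower, with a median of 0.21. Counting calls without separation, 4 were higher and 1, Cyp11a1 (-0.39), lower. Hsd3b1, which makes progesterone and other 3-keto steroids, read 931 and 850 units in MRL/MpJ against 447 to 541 (0.82, SE 0.0909, adjusted p = 0.000374). The other was Fdx1, the electron donor of steroidogenic P450 enzymes (0.22), whose call was lost without MRL/MpJ replicate 1 (adjusted p = 0.18) and each other array in turn (0.0663 to 0.234). The summed Leydig signal was 8299 and 8339 units in MRL/MpJ, among the 7987 and 8437 of AKR/N and above the 5705 and 5569 of C57BL/6.

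Of 16 Sertoli cell genes, Inha was higher (0.41) and Rhox5 (-0.41) and Ctsl (-0.18) lower. Of 16 macrophage genes, Fcgr3 was higher and Cd14 (-0.94) and Aif1 (-0.30) lower, and the summed macrophage signal, 3552 and 3407 units, lay among the others' 3347 to 3744. Dcn (-0.39) was the 1 of 10 peritubular genes, lower. None of 10 endothelial, 5 lymphocyte, 5 adipose or 1 epididymal genes was separated and called, though 3 endothelial genes lay above the others and the endothelial sum was 478 and 479 units in MRL/MpJ against 359 to 441. Of 3 blood genes, Hbb-b2, a beta globin, was higher (1.08) at under 50 units. Klf1, a transcription factor of red blood cell precursors, was called higher (0.83) without being separated, and the median of the 3 was 0.83. Apart from Fcgr3 and Klf1, the genes named in this paragraph each lost the call without 1 or more arrays, MRL/MpJ replicate 2 in each case (adjusted p = 0.0559 to 0.232).

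Transcripts of haemoglobin, the oxygen carrier of red blood cells, were far higher in MRL/MpJ than this list shows, because most globin probe sets name several genes and stand for none of them. All probe sets that name only globin genes were therefore read after their values were seen. Of 6 tested, 5 were above all other arrays and called and 0 below. A probe set for both adult alpha globin genes read 3049 and 2673 units in MRL/MpJ, 664 and 765 in AKR/N and 722 and 486 in C57BL/6 (2.11, SE 0.13, adjusted p = 5.1e-06), and another read 2038 and 1900 against 658 to 934. One for the adult beta globin genes read 2398 and 2089 units against 377 to 717 (2.01, SE 0.142, adjusted p = 1.35e-05). A further alpha globin probe set read 1343 and 1246 units in MRL/MpJ and 24.1 to 29.2 in the others, a difference of 4.93 (SE 0.104, adjusted p = 3.41e-09), with a gap of 4.80. The last, for Hba-a2, did not differ (-0.01, adjusted p = 0.988). Of the 3 listed blood genes 2, Hbb-b2 and Klf1, were called higher. The sum of the 3, which includes the globin Hbb-b2, was 276 and 288 units in MRL/MpJ and 283 and 290 in AKR/N, against 137 and 126 in C57BL/6. The part of blood in the other results was not tested.

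Genes of lipid use were more often higher than lower, but at the median MRL/MpJ lay nearer to AKR/N than to C57BL/6. Of 37 fatty acid genes 6 were higher and 2 lower, with both MRL/MpJ arrays above the others in 15 and a median of 0.17. The median was 0.11 against AKR/N and 0.26 against C57BL/6. Their summed signal was 23226 and 24155 units in MRL/MpJ, overlapping the 22685 and 24119 of AKR/N, with 20424 and 19855 in C57BL/6. Beside Fabp3, the higher ones were Acsbg1, an acyl-CoA synthetase (809 and 839 units in MRL/MpJ, 624 and 689 in AKR/N and 497 and 426 in C57BL/6), Elovl5, Cd36, Acadl and Acsl3, and the lower ones Acsbg2 (-0.34) and Lpl (-0.75). The count of higher genes was 2 without MRL/MpJ replicate 2 and 3 with arrays centred on their median. Of 22 genes of cholesterol synthesis and transport, 3 were higher, Abca1, Apoe and Idi1, and 0 lower. The median of the list was -0.06 against AKR/N and 0.27 against C57BL/6, so the list as a whole was not higher than in AKR/N. Apoe, a lipoprotein that carries cholesterol, read 699 and 644 units in MRL/MpJ, 483 and 530 in AKR/N and 362 and 352 in C57BL/6 (0.64, SE 0.0739, adjusted p = 0.000484). The synthesis enzymes themselves were mostly not called, Idi1 (0.36) being the 1 higher, with its call lost without MRL/MpJ replicate 1 (adjusted p = 0.0788) or 2 (0.128) and no difference on its other probe set (0.07, adjusted p = 0.809).

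Flagellum and cilium genes went both ways, 6 higher and 3 lower of 37. Ttll1, which adds glutamate chains to tubulin, read 502 and 460 units in MRL/MpJ against 209 to 320 (0.87, SE 0.0886, adjusted p = 0.00019), and Dnah8 and Dnah2, dynein heavy chains, were higher by 0.58 and 0.37. The call of Dnah2 was lost without MRL/MpJ replicate 2 (adjusted p = 0.0865). With MRL/MpJ replicate 2 left out, 2 were higher and 1 lower, and with MRL/MpJ replicate 1 left out, 3 and 1. The lower count was 0 when AKR/N replicate 1 was left out, and 1 for AKR/N replicate 2 or C57BL/6 replicate 1. The ion channel list gave 2 higher, Catsperg1 and Slc9a8, and 1 lower, Catsper3, of 16. Catsper3 and Catsperg1 belong to the same sperm calcium channel and lay on opposite sides (-0.49 and 0.46), and both calls were lost without MRL/MpJ replicate 1 (adjusted p = 0.114 and 0.175), as was that of Slc9a8 (0.145). A dimmer probe set of Catsperg1 was higher too (1.05, adjusted p = 5.93e-05).

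Of 37 histone and chromatin genes 1 was higher and 5 lower. Ezh1, a histone H3 methyltransferase of the Polycomb complex, read 37.3 and 42.2 units in MRL/MpJ against 156 to 188 (-1.73, SE 0.109, adjusted p = 5.79e-06) and was separated on its other probe set (adjusted p = 0.00368). The others were Hdac1 (-0.37), Hdac3, Suv39h2 and H2al2a, with H1f2 higher (0.52). The calls of Hdac1 and H1f2 were lost without MRL/MpJ replicate 2 (adjusted p = 0.0881 and 0.063), and that of H1f2 also with MRL/MpJ replicate 1 left out (0.109). Among 36 heat shock proteins and chaperones 2 were higher and 3 lower. Dnajb4, a cofactor of HSP70, read 614 and 622 units in MRL/MpJ against 1441 to 1534 (-1.24, SE 0.0585, adjusted p = 7.61e-07), and a second probe set agreed (-0.78) while another, dim one did not differ (0.09, adjusted p = 0.803). Hspa4 (0.21) and Hspd1 (0.31) were higher, with calls lost without MRL/MpJ replicate 1 (adjusted p = 0.119 and 0.0571) or 2 (0.223 and 0.375), and the 2 other probe sets of Hspa4 were not separated.

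Of 34 apoptosis genes 3 were higher and 2 lower. Bad, which promotes cell death, read 420 and 428 units in MRL/MpJ against 214 to 271 (0.74, SE 0.083, adjusted p = 0.000388). A second Bad probe set of like brightness read 308 and 315 units against 273 to 324 and did not differ by the test (0.08, adjusted p = 0.644), so the probe sets disagree. Of 44 antioxidant and glutathione enzymes 3 were higher and 3 lower. Gpx3, a secreted glutathione peroxidase, read 59.8 and 103 units in MRL/MpJ, 359 and 425 in AKR/N and 152 and 108 in C57BL/6, so it was called against AKR/N (-2.10, adjusted p = 0.000172) and not against C57BL/6 (-0.60, adjusted p = 0.0994). Of 38 genes of extracellular matrix and wound repair, Plat, a plasminogen activator, was higher (0.51) and Loxl1 lower (-0.49), both lost without MRL/MpJ replicate 1 (adjusted p = 0.125 and 0.0897). Of 14 MHC and antigen presentation genes, H2-Aa (-0.97) and H2-DMa (-0.62), both class II genes, were lower, with calls lost without MRL/MpJ replicate 1 (adjusted p = 0.155 and 0.166). Between them on the chromosome, H2-DMb2, named after its values were seen, was higher (0.94, adjusted p = 0.0227), with 1 of its 2 other probe sets separated the same way and the other not separated (-0.29). None of 24 interferon response genes and none of 5 Y-linked genes was separated and called.

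**Figure D5:**
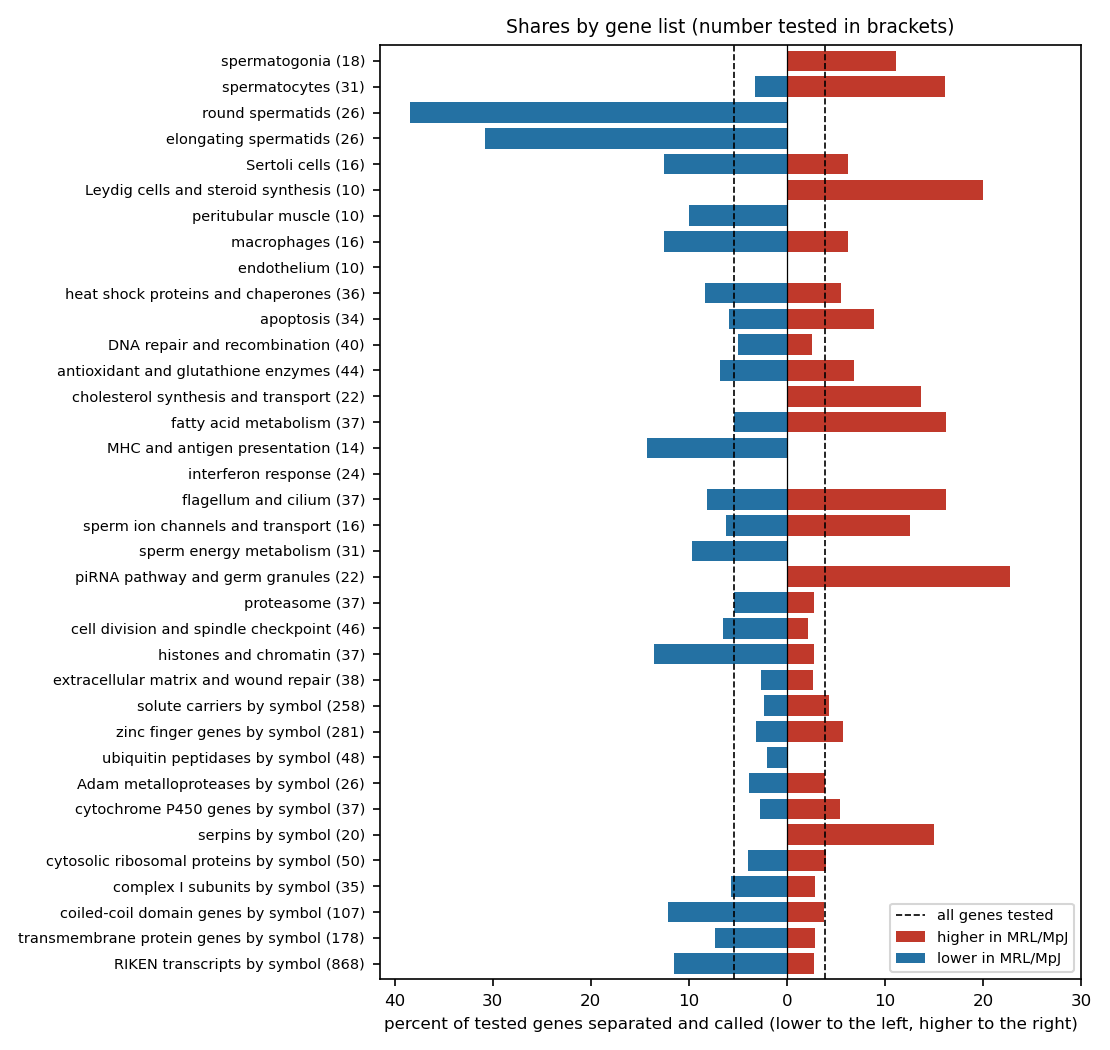
Percent of the tested genes of each list that were separated and called, higher in MRL/MpJ to the right and lower to the left, for lists with at least 10 tested genes (number in brackets). The dashed lines mark all tested genes, 3.89% higher and 5.43% lower, and round spermatids reach 38.5% lower.

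Families taken by gene symbol were mostly near the share of all genes. Transcripts known only by a RIKEN clone name were 100 lower and 24 higher of 868, a total of 14.3% beside 9.32% over all genes. Their summed signal was 258647 and 261055 units in MRL/MpJ against 282375 to 290161, and their lower count was 49 and their higher count 10 without MRL/MpJ replicate 1, with 51 and 11 for MRL/MpJ replicate 2. Coiled-coil domain genes were 13 lower and 4 higher of 107. Beside Ccdc38, Ccdc54 was lower, at 1370 and 1406 units against 1924 to 2144, and Ccdc134 higher, at 359 and 374 units against 150 to 206. The lower count was 5 without MRL/MpJ replicate 1, 6 with MRL/MpJ replicate 2 left out and 8 without AKR/N replicate 1 or 2. The higher count was 1 without MRL/MpJ replicate 2 and 2 with MRL/MpJ replicate 1, either AKR/N array or C57BL/6 replicate 2 left out.

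Transmembrane protein genes were 5 higher and 13 lower of 178, led by Tmem18, at 75.9 and 98.2 units against 267 to 426, and Tmem243, at 92.4 and 68.7 against 207 to 431. Solute carriers were 11 higher and 6 lower of 258, with Slc25a38, a mitochondrial glycine carrier, at 62 and 66 units in MRL/MpJ against 132 to 173. Zinc finger genes were 16 higher and 9 lower of 281. Serpins, protease inhibitors, were 3 higher and 0 lower of 20. Cytochrome P450 genes gave 2 higher, Cyp2f2 and Cyp4v3, and 1 lower, Cyp1b1, of 37, the calls of the last 2 lost without MRL/MpJ replicate 1 (adjusted p = 0.155 and 0.121). Adam metalloproteases gave 1 each of 26. Ribosomal proteins gave 2 each of 50, complex I subunits 1 higher and 2 lower of 35, and ubiquitin peptidases 1 lower of 48.

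Standing outside the other 4 arrays did not mean being equally far from both strains. Of the 563 higher genes 167 and of the 786 lower genes 311 were called against AKR/N and against C57BL/6 each, together 3.3% of all tested genes. Both comparisons use the same MRL/MpJ arrays. AKR/N and C57BL/6 themselves were called different in 148 higher and 166 lower genes, beside 11.9% of all tested genes. In these AKR/N was the strain nearer to MRL/MpJ in 100 and 104 and C57BL/6 in 48 and 62.

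Single genes show each kind. 2010109A12Rik read 8.59 and 7.18 units in MRL/MpJ, 16.9 and 22.2 in AKR/N and 786 and 657 in C57BL/6, so that MRL/MpJ and AKR/N were both near the bottom, and AKR/N was not called against MRL/MpJ (adjusted p = 0.057). Its 2 other probe sets were called lower (-2.01 and -1.93) but not separated, MRL/MpJ lying above AKR/N on one and overlapping it on the other. Serpina3a read 1582 and 1467 units in MRL/MpJ, 1132 and 1211 in AKR/N and 207 and 165 in C57BL/6, again with AKR/N nearer. Galm, which interconverts the anomers of galactose, was the reverse case, at 129 and 143 units in MRL/MpJ, 149 and 167 in C57BL/6 and 576 and 593 in AKR/N. Cdkl4, in the same stretch of the chromosome, read 283 and 267 units in MRL/MpJ, 231 and 266 in C57BL/6 and 74.8 and 68 in AKR/N. In both genes the distance to C57BL/6 was small (-0.20, adjusted p = 0.267, and 0.14, adjusted p = 0.502).

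Members were placed in the order of genes along the chromosomes (RefSeq), and runs were taken as members with at most 2 other tested genes between neighbours. Of 1343 placed members 259 stood in 75 runs of at least 3. Members were 9.32% of all tested genes, so some runs arise by scatter alone. Whether there were more runs than scattered members would form was not tested. The longest held 6 members of 8 tested genes, a cluster of zinc finger genes and related transcripts: Zfp980, Znf41-ps, Gm13238, 1700095A21Rik, Zfp991 and Zfp979, each lower in MRL/MpJ. All 6 were called against C57BL/6. Against AKR/N, Zfp980 (adjusted p = 0.138), 1700095A21Rik (0.355) and Zfp979 (0.311) were not called, and Znf41-ps, Gm13238 and Zfp991 were. Znf41-ps read 29.2 and 34.5 units in MRL/MpJ, 96 and 53.8 in AKR/N and 666 and 684 in C57BL/6, and Gm13238 read 50.8 and 41.3, 88.6 and 84.6, and 218 and 229. As in Zfp991, the order of the strains was C57BL/6 highest, AKR/N between and MRL/MpJ lowest. Between them lay 4933438K21Rik and Zfp982, and Zfp982 differed the other way without a call (0.51, adjusted p = 0.218). These genes belong to 1 family, so which of them a probe set reads is uncertain, and the call of Zfp979 was lost with any 1 array left out (adjusted p = 0.0599 to 0.188).

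A second run of 6 held 5 lower members, 1110059E24Rik, Abhd17b, Klf9, 1700028P14Rik and Ptar1, and 1 higher, Apba1. Ptar1, a prenyltransferase subunit, was separated on all 4 of its probe sets. Another run of 6 joined Rmdn2, Cyp1b1, Galm, Morn2 and 4930429F11Rik, lower, with Cdkl4, higher. Runs of 5 held Rad23b, Klf4, Actl7b and Actl7a, lower, with Abitram, higher, and Mttp, 4930579F01Rik and the alcohol dehydrogenases Adh7 and Adh4, lower, beside Adh5, higher (487 and 491 units against 310 to 424). The last of the 6 longest runs held Calml4 and Skor1, higher, and Pias1, Iqch and Smad6, lower. The members of a run thus did not all go one way, the zinc finger run being the exception among these 6. In these 5 runs the calls of 1110059E24Rik, 1700028P14Rik, Klf9, Apba1, Rmdn2, Cyp1b1, 4930429F11Rik, Rad23b, Klf4, Actl7b, Actl7a, Abitram, Mttp, Adh7, Adh5, Calml4, Skor1, Pias1 and Iqch were lost with MRL/MpJ replicate 1 or 2 left out (adjusted p up to 0.293). With the mean of all probe sets of a gene, Apba1 (-0.0025) and Pias1 (0.0728) changed sign.

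The serpin genes Serpina5, Serpina3a and Serpina3n formed a run with Dicer1, all 4 higher on their brightest probe sets. Another probe set of Dicer1 had the opposite sign without being separated (-0.24). Serpina5, an inhibitor of protein C and of proteases in semen, read 1181 and 1113 units in MRL/MpJ, 816 and 902 in AKR/N and 333 and 326 in C57BL/6 (1.08, SE 0.0688, adjusted p = 6.03e-06). Serpina3n was dim, at 59.3 and 48.1 units against 43.9 and 40.6 in AKR/N and 7.4 and 4.18 in C57BL/6, and its call was lost without MRL/MpJ replicate 1 (adjusted p = 0.136) or 2 (0.058). All 3 serpins had C57BL/6 lowest and AKR/N between. Against AKR/N, Serpina5 was called (adjusted p = 0.0116), and Serpina3a (0.0514) and Serpina3n (0.583) were not.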

How the data were processed

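Testis RNA of 6 mice was measured on 3′ expression arrays after one-cycle amplification and biotin labelling, per the labels' protocols. The authors deposited 1 linear intensity per probe set and array, each array scaled to 1 trimmed mean, as the values show (2% trimmed at each end). No source used here names the summary software or gives detection calls. Arrays were grouped by the strain in their titles. The authors' scaling was kept. Of 45101 probe sets, 64 controls were left out, and 29692 were tested, with at least 2 arrays above their array's 40th percentile. Symbols came from the platform annotation (1 symbol for 34958 probe sets, several for 932), and each gene was read from its brightest tested probe set. RefSeq (GRCm38.p6) gave gene order and promoters only.

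Strain means were fitted to log2(intensity + 16) with limma 3.58.1 in R 4.3.3 (eBayes with a trend, 3 residual and 7.58 prior degrees of freedom), Benjamini-Hochberg adjusted over all tested probe sets and called under 0.05. A gene was separated when both MRL/MpJ arrays lay outside the 4 others. Calculations were tested on simulated data. The separation uses the same arrays as the test, so the p-values of these genes describe them and are no second line of support. The members and the 41 lists, 11 of them by symbol, were chosen with earlier results of these data known.

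Named genes were, per direction, the 10 widest gaps, the 6 widest among the brightest 10% of genes and the 6 widest over all probe sets of genes with at least 2 others that agree, without opposing probe sets. Added were 6 genes with opposing probe sets, up to 3 members of each list by smallest adjusted p and the 6 longest runs; any other gene was named after its values were seen, such as the remaining members of a list. Alternatives were other scalings, pseudocounts, filters and probe set rules, no variance trend, 2 groups, the replicate number as a block and leaving out each array.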

Additional observations from a re-analysis of the deposited data

How the results depend on the processing

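The count of probe sets called, 2529 here, was 1675 with no filter on dim probe sets, 625 without a variance trend and 291 with the other strains as 1 group, and between 900 (without MRL/MpJ replicate 1) and 2261 with 1 array left out. It was 951 without MRL/MpJ replicate 2 and 1500 without AKR/N replicate 2. The count of genes separated and called, 1349 here, was 298 without a variance trend and 181 with 2 groups, where every array's difference between AKR/N and C57BL/6 counts as spread, and between 495 and 1260 with 1 array left out. Probe sets with the MRL/MpJ arrays above all others numbered between 4761 and 7051, and below all others between 4262 and 6429, with 1 array left out, since fewer arrays overlap less. Quantile normalization gave 1281 genes, of which 1177 were the same, and arrays centred on their median gave 1313, of which 1221 were the same. Median centring turned the balance of probe sets above (3352) and below (3962) all others and raised the lower share of calls from 53.4% to 61.4%. With the replicate block 3031 probe sets and 1561 genes were called. The labels do not say whether like-numbered arrays share a day or batch, so whether the replicate numbers pair the mice is unknown. Deviations of like-numbered arrays from their strain means correlated at 0.043 to 0.049. Of 158 named genes, 42 were called under every alternative run and 82 with any 1 array left out. None reversed direction except with the mean of all probe sets of a gene, where Apba1 (-0.0025), Pias1 (0.0728) and Psme3 (0.0339) changed sign, none of them called. The cause was not tested. No detection calls were given, so a probe set without signal shows only as a low intensity.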
